A study of Drosophila melanogaster with 12 samples.

Results

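The cytochrome P450 genes of Drosophila melanogaster were taken as every row of the deposited expression table whose symbol begins with *Cyp* and a digit. That rule met 81 of the 13554 genes, and 1 of them, *Cyp1*, was left out because its own description names a cyclophilin and not a P450. The 80 remaining genes fell by number into 22 *Cyp4*, 21 *Cyp6*, 5 *Cyp9*, 7 *Cyp12* and 4 *Cyp28* genes, 19 genes of the *Cyp3xx* numbers, and *Cyp18a1* and *Cyp49a1*. All 80 matched a RefSeq gene of the Release 6 assembly by Entrez identifier, with the same symbol.

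RNA of whole adult males aged 5 days was measured on Affymetrix Drosophila Gene 1.0 ST arrays in 4 groups of 3: *dSTINGΔ* males starved for 24 h, *dSTINGΔ* males on food, control (*w1118*) males starved for 24 h and control males on food. The *dSTINGΔ* allele is a deletion in *CG1667*, the fly STING gene, left by imprecise excision of a P element, and the flies were homozygous for it. Both stocks carry the *w1118* mutation of the *white* gene, and the control stock carries it alone. Each genotype was 1 stock, so the deletion and any other difference between the stocks cannot be told apart, and the labels do not say whether the 3 arrays of a group were separate cultures, so the p-values measure the spread between these arrays. Each sample pooled several whole males, in which fewer cells of a type and less RNA per cell cannot be told apart.

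P450 enzymes are heme monooxygenases that insert an oxygen atom into their substrate. Most sit in the endoplasmic reticulum and draw electrons from the reductase *Cpr*, while those of the mitochondrial clan are served by ferredoxin. In insects the *Cyp6*, *Cyp9*, *Cyp12* and *Cyp28* families are known for the oxidation of insecticides and plant toxins in the gut, fat body and Malpighian tubule, the *Cyp4* family for fatty acids and hydrocarbons, and a small set of conserved enzymes for the steroid hormone ecdysone.

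The targeted gene was checked first. *CG1667* had a mean of 2.49 ± 0.11 in *dSTINGΔ* starved males against 5.37 ± 0.13 in control starved males, and 2.24 ± 0.23 in *dSTINGΔ* fed males against 5.85 ± 0.42 in control fed males (log2, SD, n = 3 each), and the groups did not overlap on any array. All values are the log2 values of the authors' robust multi-array average (RMA), in which 1 unit is a 2-fold step and the median of an array lay between 5.82 and 5.88. Arrays of a group correlated with each other at 0.983 or above over all genes, and the control fed arrays were the most spread: their root mean square deviation from the group mean was 0.154 to 0.209, against 0.116 to 0.165 in the other groups. Brightness differs between probe sets, so levels were compared between groups and not between genes. Below, the values of a group are sorted low to high, and an array left out is named by its number in the labels. Of the 80 P450 genes, 22 read above the array median on all 12 arrays, 25 on some and 33 on none.

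The P450 family differed between the stocks, in fed and in starved flies, with more members lower than higher in *dSTINGΔ*. In fed males 8 of the 80 genes were higher and 24 lower in *dSTINGΔ* (limma, p adjusted across the table by Benjamini-Hochberg, threshold 0.05), and 48 were not called. Of all 13554 genes 6.2% were called higher and 6.26% lower, so 10% of the P450 genes against 6.2% were higher and 30.0% against 6.26% were lower. In starved males 12 were higher and 28 lower, which is 15% and 35.0% of the family, against 9.01% and 10.9% of all genes. The median log2 difference was -0.0842 over the 80 genes and -0.0088 over all genes in fed males, and -0.0952 over the 80 genes and 0.0017 over all genes in starved males. With no test, the 3 *dSTINGΔ* arrays lay wholly above the 3 control arrays for 12 members and wholly below for 29 in fed males, together 51.2% of the family, against 28.2% of all genes; in starved males this held for 21 and 29 members, 62.5% of the family, against 42.6% of all genes.

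In both comparisons, which share no array, 7 genes were higher in *dSTINGΔ*, and *Cyp12d1-d* and *Cyp6a2* stood far from the rest. Joint counts over several comparisons were not made for all genes. Those of the family, here and below, therefore have no background share. *Cyp12d1-d*, a mitochondrial-clan enzyme whose genes are induced by xenobiotics and tied to insecticide tolerance, read 7.35, 7.47 and 8.13 on the *dSTINGΔ* fed arrays, against 2.08, 2.27 and 2.44 on the control fed arrays. On the starved arrays it read 8.18, 8.54 and 8.82 in *dSTINGΔ*, against 1.89, 1.99 and 2.16 in control. No *dSTINGΔ* array came near a control array. The log2 difference was 5.39 (SE 0.20, adjusted p = 3.64e-09) in fed males and 6.50 (SE 0.20, adjusted p = 4.92e-10) in starved males. The control values lie close to the lowest value of the table, 1.11, so how low the control level truly is cannot be read from them, and no fold is given.

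Its neighbour *Cyp12d1-p*, a near-identical copy, behaved otherwise. *Cyp12d1-p* read 7.28, 7.84 and 7.86 in *dSTINGΔ* fed males, against 7.55, 7.60 and 8.37 in control fed males, and 7.89, 7.98 and 8.07 in *dSTINGΔ* starved males, against 7.90, 8.30 and 8.34 in control starved males. The groups overlapped, with log2 differences of -0.18 (adjusted p = 0.643) and -0.20 (adjusted p = 0.564). Both symbols have their own probe set, and 2 pseudogenes lie beside them. On the control arrays the *Cyp12d1-d* probe set read at most 2.44, where that of *Cyp12d1-p* read at least 7.55. Whether either probe set takes up transcript of the other copy was not tested.

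*Cyp6a2*, an enzyme known to oxidize DDT and other insecticides, read 9.54, 9.56 and 9.59 in *dSTINGΔ* fed males, against 5.46, 5.50 and 5.81 in control fed males. The starved arrays read 9.12, 9.37 and 9.50 in *dSTINGΔ*, against 5.90, 5.94 and 6.03 in control, and the stocks were far apart on every array. Its log2 difference was 3.97 (SE 0.11, adjusted p = 2.42e-10) in fed males, 15.7-fold, and 3.37 (SE 0.11, adjusted p = 1.05e-09) in starved males, 10.4-fold. *Epac*, which overlaps it, differed by 0.48 in fed males (adjusted p = 0.0114) and by 0.22 in starved males (adjusted p = 0.168).

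*Cyp9c1* read 6.35, 6.39 and 6.49 in *dSTINGΔ* fed males, against 3.77, 3.95 and 4.11 in control fed males, and 6.34, 6.35 and 6.51 in *dSTINGΔ* starved males, against 3.97, 4.00 and 4.38 in control starved males. Its difference was 2.47 (SE 0.12, adjusted p = 7.54e-08) and 2.28 (SE 0.12, adjusted p = 1.87e-07), about the same size with and without food. *Cyp4p2* read 5.84, 5.85 and 5.85 in *dSTINGΔ* fed males, against 3.93, 4.00 and 4.44 in control fed males, with a difference of 1.73 (SE 0.13, adjusted p = 5.81e-06). In starved males the *Cyp4p2* difference was 1.15 (SE 0.13, adjusted p = 8.93e-05), from 5.42, 5.45 and 5.57 in *dSTINGΔ* against 4.09, 4.42 and 4.47 in control. The groups of both genes were well apart. Smaller differences were found for *Cyp4ad1*, at 1.06 (SE 0.10, adjusted p = 3.47e-05) fed and 0.90 (SE 0.10, adjusted p = 8.16e-05) starved, for *Cyp4d8*, at 0.81 (SE 0.17, adjusted p = 0.00895) and 0.65 (SE 0.17, adjusted p = 0.0184), and for *Cyp310a1*, a member known from Wingless signaling in the wing disc, at 0.54 (SE 0.10, adjusted p = 0.00314) and 0.75 (SE 0.10, adjusted p = 0.000181). The starved call of *Cyp4d8* was lost without at least 1 array, with an adjusted p of 0.0881 without control starved array 2. The other 6 genes kept both calls without each array in turn. *Cyp4p2*, *Cyp4ad1*, *Cyp4d8* and *Cyp310a1* read above the array median on no array, so their signal is low. Of the 33 such members, 4 were called higher and 2 lower in fed males, and 5 and 7 in starved males. Of the 22 members above the median on all arrays, 0 were called higher and 11 lower in fed males, and 2 and 9 in starved males. Of all genes at any signal, 6.2% were called higher and 6.26% lower in fed males, and 9.01% and 10.9% in starved males. The share among all genes of the same signal level was not counted, so these splits have no matched background.

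**Figure D1:**
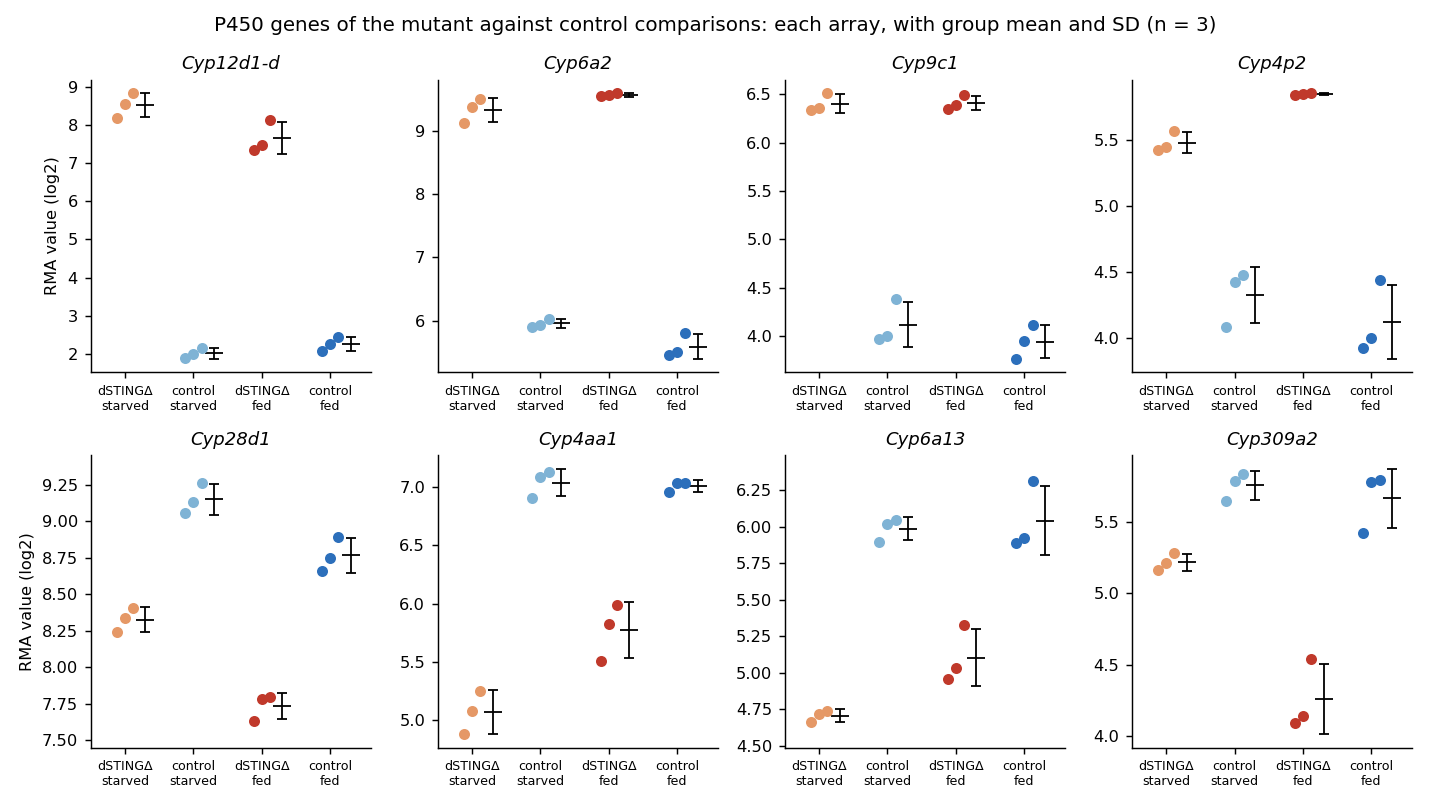
RMA value (log2) of 8 P450 genes on each of the 12 arrays. Points are arrays, sorted by value within a group, the bar beside them is the group mean with its SD (n = 3), and each panel has its own scale. In the upper row every *dSTINGΔ* array lies above every control array, and in the lower row every one lies below; *Cyp12d1-d* reads at most 2.44 in control and at least 7.35 in *dSTINGΔ*.

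In both comparisons 18 genes were lower in *dSTINGΔ*. Most were *Cyp4* or *Cyp6* genes, the largest families, and the rest came from the *Cyp9*, *Cyp12*, *Cyp28* and *Cyp3xx* groups. *Cyp28d1*, which has been tied to nicotine tolerance, read 7.63, 7.78 and 7.80 in *dSTINGΔ* fed males, against 8.66, 8.75 and 8.89 in control fed males, and 8.24, 8.34 and 8.40 in *dSTINGΔ* starved males, against 9.05, 9.13 and 9.26 in control starved males. The arrays of the stocks did not overlap, and the difference was -1.03 (SE 0.09, adjusted p = 2.02e-05) and -0.82 (SE 0.09, adjusted p = 7.28e-05). *Cyp4aa1* read 5.51, 5.82 and 5.99 in *dSTINGΔ* fed males, against 6.95, 7.04 and 7.04 in control fed males, a difference of -1.24 (SE 0.13, adjusted p = 5.28e-05). It was lower still in *dSTINGΔ* starved males, at 4.88, 5.08 and 5.25, against 6.90, 7.09 and 7.13 in control starved males, a difference of -1.97 (SE 0.13, adjusted p = 8.62e-07). Between control starved and control fed males the *Cyp4aa1* difference was 0.03 (adjusted p = 0.9).

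*Cyp6a13* read 4.96, 5.03 and 5.32 in *dSTINGΔ* fed males, against 5.89, 5.92 and 6.31 in control fed males, and 4.66, 4.72 and 4.74 in *dSTINGΔ* starved males, against 5.90, 6.02 and 6.05 in control starved males, with differences of -0.94 (SE 0.12, adjusted p = 0.000405) and -1.28 (SE 0.12, adjusted p = 2.3e-05). *Cyp309a2* read 4.09, 4.14 and 4.54 in *dSTINGΔ* fed males, against 5.43, 5.78 and 5.80 in control fed males, a difference of -1.41 (SE 0.13, adjusted p = 2.32e-05). In starved males the *Cyp309a2* gap was narrower, at -0.54 (SE 0.13, adjusted p = 0.0115), from 5.16, 5.21 and 5.28 in *dSTINGΔ* against 5.65, 5.79 and 5.84 in control. *Cyp313a1* read 8.70, 8.71 and 8.73 in *dSTINGΔ* fed males, against 9.25, 9.26 and 9.43 in control fed males, and 7.36, 7.77 and 7.82 in *dSTINGΔ* starved males, against 8.69, 8.74 and 8.79 in control starved males, with differences of -0.60 (SE 0.11, adjusted p = 0.00393) and -1.09 (SE 0.11, adjusted p = 3.55e-05). None of these groups overlapped.

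The lowest fed value of the family belonged to *Cyp12c1*, a mitochondrial-clan gene, at -2.00 (SE 0.21, adjusted p = 7.39e-05), and its starved difference was -0.80 (SE 0.21, adjusted p = 0.0185) with overlapping arrays. In the *Cyp4* family *Cyp4d20* had -1.15 (SE 0.14, adjusted p = 0.000216) fed and -1.25 (SE 0.14, adjusted p = 6.71e-05) starved. Its relative *Cyp4p1* had -1.19 (SE 0.17, adjusted p = 0.000594) and -1.31 (SE 0.17, adjusted p = 0.000171). *Cyp4ac2* had -0.49 (SE 0.12, adjusted p = 0.0177) and -1.14 (SE 0.12, adjusted p = 3.82e-05), *Cyp4ac1* -0.58 (SE 0.13, adjusted p = 0.0099) and -0.77 (SE 0.13, adjusted p = 0.00104), and *Cyp4p3* -0.50 (SE 0.11, adjusted p = 0.0099) and -0.76 (SE 0.11, adjusted p = 0.000386).

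Among the *Cyp6* genes lower in both, *Cyp6w1* had -0.76 (SE 0.21, adjusted p = 0.0332) fed and -1.20 (SE 0.21, adjusted p = 0.00157) starved, *Cyp6a21* -0.90 (SE 0.22, adjusted p = 0.0189) and -1.18 (SE 0.22, adjusted p = 0.00254), and *Cyp6a18* -0.45 (SE 0.13, adjusted p = 0.0362) and -1.06 (SE 0.13, adjusted p = 0.000103). *Cyp6d5* had -0.73 (SE 0.12, adjusted p = 0.00197) and -0.61 (SE 0.12, adjusted p = 0.00373), and *Cyp6d2* -0.44 (SE 0.13, adjusted p = 0.0421) and -0.55 (SE 0.13, adjusted p = 0.00924). The *Cyp9* family contributed *Cyp9b2*, at -0.91 (SE 0.12, adjusted p = 0.000415) and -0.62 (SE 0.12, adjusted p = 0.00308), and *Cyp9h1*, at -0.95 (SE 0.16, adjusted p = 0.00204) and -0.56 (SE 0.16, adjusted p = 0.0243). Without 1 array at a time, 11 of the 18 kept both calls, and the calls of *Cyp6w1*, *Cyp6a21*, *Cyp6a18*, *Cyp6d2* and *Cyp4ac2* in fed males and of *Cyp12c1* and *Cyp9h1* in starved males were each lost without at least 1 array, with adjusted p up to 0.159 for *Cyp6d2* without *dSTINGΔ* fed array 3.

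**Figure D2:**
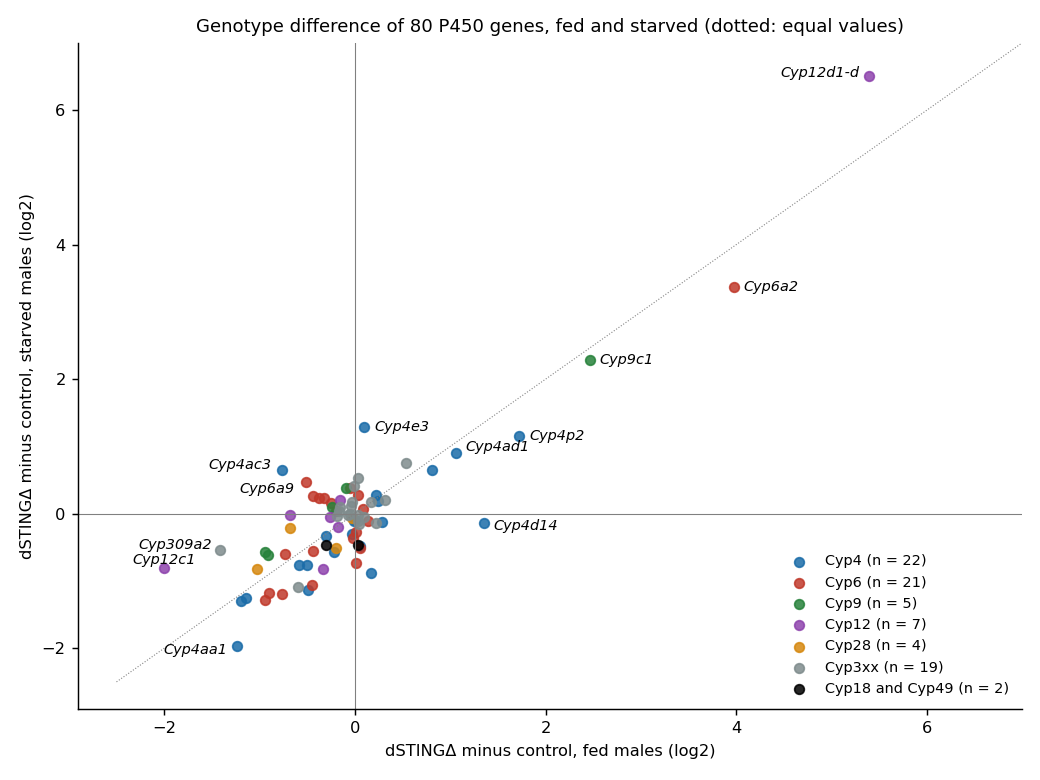
Log2 difference, *dSTINGΔ* minus control, of the 80 P450 genes in fed males (horizontal) and in starved males (vertical), coloured by family; the dotted line marks equal values. In both comparisons 7 called genes are positive and 18 are negative, *Cyp12d1-d* (5.39 and 6.50) and *Cyp6a2* (3.97 and 3.37) lie far out, and *Cyp4ac3* and *Cyp6a9* are negative in fed and positive in starved males.

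Other members were called in 1 feeding state or changed side. *Cyp4ac3* and *Cyp6a9* were lower in *dSTINGΔ* on food and higher when starved: *Cyp4ac3* had -0.77 (SE 0.21, adjusted p = 0.033) and 0.65 (SE 0.21, adjusted p = 0.049), and *Cyp6a9* had -0.51 (SE 0.13, adjusted p = 0.0197) and 0.47 (SE 0.13, adjusted p = 0.0203). In fed males alone, *Cyp4d14* was called higher, at 1.35 (SE 0.20, adjusted p = 0.000847), and 4 genes were called lower: *Cyp12a5* at -0.68 (SE 0.15, adjusted p = 0.0107), *Cyp28a5* at -0.69 (SE 0.11, adjusted p = 0.0018), *Cyp6a22* at -0.44 (adjusted p = 0.0321) and *Cyp6a17*, which sets temperature preference in the fly, at -0.33 (adjusted p = 0.0295). Their starved differences were -0.13 (adjusted p = 0.695) for *Cyp4d14*, -0.02 (adjusted p = 0.955) for *Cyp12a5*, -0.22 (adjusted p = 0.198) for *Cyp28a5*, 0.26 (adjusted p = 0.157) for *Cyp6a22* and 0.23 (adjusted p = 0.0881) for *Cyp6a17*. Several of these calls were lost without single arrays. The starved call of *Cyp4ac3* held in 3 of 12 fits that left out 1 array (adjusted p = 0.194 without *dSTINGΔ* starved array 2), and the fed one in 7 of 12 (adjusted p = 0.125 without control fed array 3). Of the 12 such fits, the fed call held in 7 for *Cyp6a17*, in 8 for *Cyp6a22* and in 8 for *Cyp6a9*, and the starved call of *Cyp6a9* held in 8 (adjusted p = 0.0998 without control starved array 2).

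In starved males alone, 3 genes were called higher and 10 lower. *Cyp4e3*, known for permethrin tolerance in the Malpighian tubule, read 7.54, 8.21 and 8.42 in *dSTINGΔ* starved males, against 6.54, 6.68 and 7.06 in control starved males, a difference of 1.29 (SE 0.27, adjusted p = 0.00442), while its fed arrays overlapped (0.10 (adjusted p = 0.854)). The others called higher were *Cyp9b1* at 0.38 (adjusted p = 0.0171) and *Cyp6a19* at 0.38 (adjusted p = 0.042). Among those called lower, *Cyp4d21* (*sxe1*), which is tied to male courtship, had -0.87 (SE 0.20, adjusted p = 0.0087), from 6.72, 7.32 and 7.50 in *dSTINGΔ* against 7.86, 8.15 and 8.16 in control. *Cyp12e1* had -0.83 (SE 0.13, adjusted p = 0.000951) and *Cyp6t1* -0.74 (SE 0.12, adjusted p = 0.00119). *Cyp4e2* had -0.57 (SE 0.11, adjusted p = 0.00227) and *Cyp28c1* -0.51 (SE 0.14, adjusted p = 0.0195). Smaller were *Cyp4s3* at -0.48 (adjusted p = 0.0157), *Cyp18a1*, the hydroxylase that inactivates ecdysone, at -0.47 (adjusted p = 0.0116), *Cyp49a1* at -0.46 (adjusted p = 0.0161), *Cyp6g1*, the DDT resistance gene, at -0.36 (adjusted p = 0.0315), and *Cyp4ae1* at -0.30 (adjusted p = 0.0282). The calls of *Cyp6a19*, *Cyp9b1*, *Cyp28c1*, *Cyp4ae1*, *Cyp6g1*, *Cyp4s3*, *Cyp49a1* and *Cyp18a1* were each lost without at least 1 array, up to adjusted p = 0.158 for *Cyp6a19* without *dSTINGΔ* starved array 3.

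By family, the counts are read against the share of all genes called in either direction, 12.5% in fed and 20% in starved males. In fed males 3 of 5 *Cyp9*, 11 of 22 *Cyp4* (4 higher, 7 lower), 10 of 21 *Cyp6* (1 higher, 9 lower), 3 of 7 *Cyp12*, 2 of 4 *Cyp28* and 3 of 19 *Cyp3xx* genes were called. In starved males the counts were 4 of 5 *Cyp9*, 15 of 22 *Cyp4* (5 higher, 10 lower), 11 of 21 *Cyp6* (3 higher, 8 lower), 3 of 7 *Cyp12*, 2 of 4 *Cyp28* and 3 of 19 *Cyp3xx* genes, together with *Cyp18a1* and *Cyp49a1*. The called *Cyp28* genes were all lower: *Cyp28d1* and *Cyp28a5* in fed males, and *Cyp28d1* and *Cyp28c1* in starved males. The *Cyp3xx* share was 15.8% in each feeding state, near that of all genes in fed males and under it in starved males. Of the *Cyp3xx* genes, 15 of 19 read above the array median on no array. Sorted by the insect clans, 17 of 35 genes of the CYP3 clan were called in fed males (3 higher, 14 lower), 12 of 32 of the CYP4 clan (4 and 8), 3 of 9 of the mitochondrial clan (1 and 2) and 0 of 4 of the CYP2 clan (limma, with 0 of 4 at an unadjusted p under 0.05 as well). In starved males 19 of 35, 16 of 32, 4 of 9 and 1 of 4 were called.

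**Figure D3:**
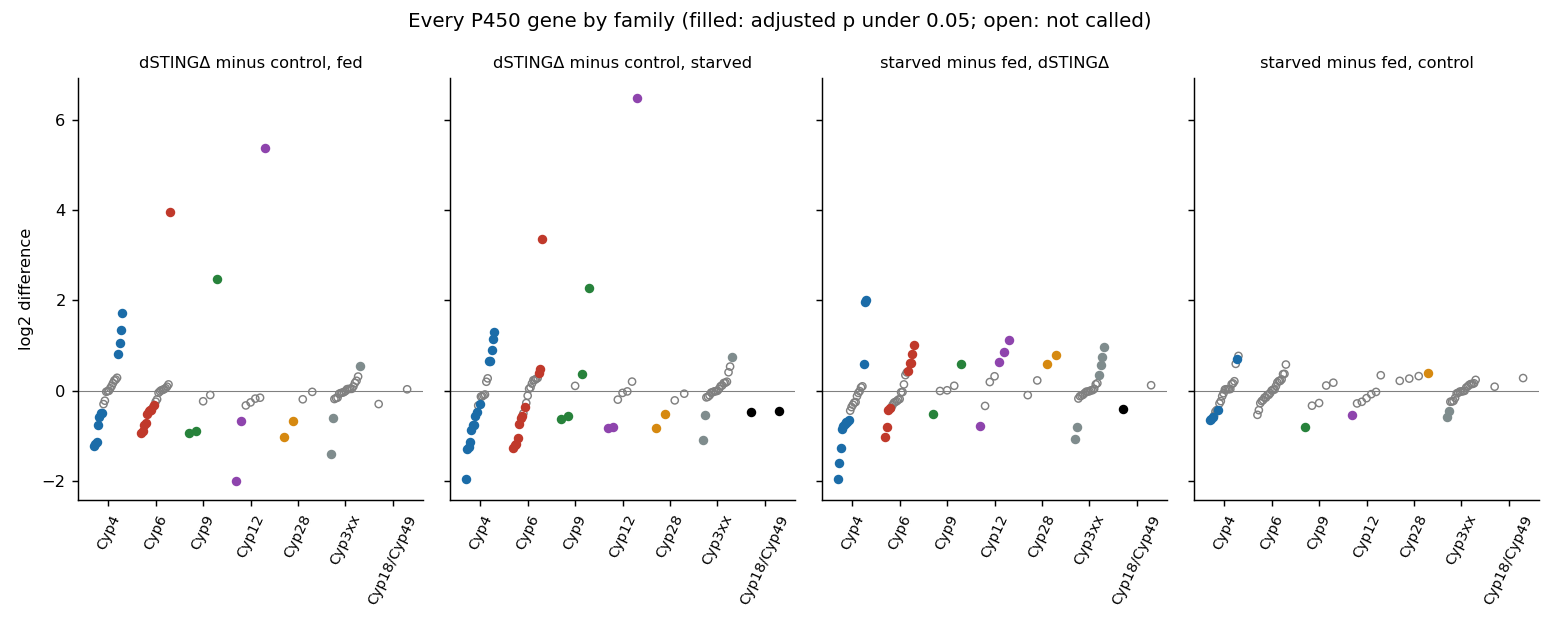
Log2 difference of every P450 gene, by family, in the 4 comparisons; genes of a family are sorted by value, filled points are called at an adjusted p under 0.05 and open points are not. The *dSTINGΔ* minus control panels hold 32 and 40 filled points, the starved minus fed panels 36 in *dSTINGΔ* and 10 in control.

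Starvation for 24 h was the other comparison. In *dSTINGΔ* males 18 of the 80 P450 genes were higher and 18 lower in starved than in fed flies, 22.5% each, against 7.3% and 9.52% of all genes. In control males 2 were higher and 8 lower, 2.5% and 10% of the family, against 5.68% and 5.55% of all genes. The 3 starved arrays lay wholly above the 3 fed arrays for 22 members and wholly below for 26 in *dSTINGΔ*, 60% of the family against 38.8% of all genes, and for 12 and 17 members in control, 36.2% against 28.4%. The 2 counts alone do not test whether the genotypes differ in their response; that test called 4 members. The control count moved with single arrays and was 5 without control fed array 3 and 4 without control starved array 1. At an unadjusted p under 0.05 the counts were 46 in *dSTINGΔ* and 28 in control.

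Called in both genotypes were 9 genes, all in the same direction, with no such count made over all genes. Higher when starved were *Cyp28d1*, at 0.59 (SE 0.09, adjusted p = 0.000708) in *dSTINGΔ* and 0.38 (SE 0.09, adjusted p = 0.0237) in control, and *Cyp4p1*, at 0.58 (SE 0.17, adjusted p = 0.0283) and 0.70 (SE 0.17, adjusted p = 0.0214). Both were also lower in *dSTINGΔ* than in control in each feeding state. Of the 7 lower genes, *Cyp4ac2* read 4.18, 4.36 and 4.40 in *dSTINGΔ* starved males, against 5.55, 5.55 and 5.68 in *dSTINGΔ* fed males, a difference of -1.28 (SE 0.12, adjusted p = 1.5e-05). In control it read 5.28, 5.49 and 5.59 starved, against 5.95, 5.96 and 6.32 fed, a difference of -0.63 (SE 0.12, adjusted p = 0.00838). No starved array reached a fed array of its genotype.

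*Cyp313a1*, whose array values are given above, had a starved minus fed difference of -1.06 (SE 0.11, adjusted p = 3.76e-05) in *dSTINGΔ* and -0.58 (SE 0.11, adjusted p = 0.00949) in control. *Cyp9b2* read 7.77, 7.84 and 7.95 in *dSTINGΔ* starved males, against 8.25, 8.41 and 8.43 in *dSTINGΔ* fed males, a difference of -0.51 (adjusted p = 0.0103), and 8.33, 8.52 and 8.57 in control starved males, against 9.01, 9.31 and 9.50 in control fed males, a difference of -0.80 (SE 0.12, adjusted p = 0.00292). The starved and fed arrays were apart in each genotype. *Cyp4ac1* read 5.54, 5.75 and 5.81 in *dSTINGΔ* starved males, against 6.27, 6.54 and 6.62 in *dSTINGΔ* fed males, a difference of -0.78 (SE 0.13, adjusted p = 0.000824), and 6.36, 6.38 and 6.66 in control starved males, against 6.96, 6.98 and 7.25 in control fed males, a difference of -0.59 (SE 0.13, adjusted p = 0.0139). Here too each starved array was below each fed one. The remaining lower genes were *Cyp305a1*, at -0.81 (SE 0.12, adjusted p = 0.00037) in *dSTINGΔ* and -0.46 (SE 0.12, adjusted p = 0.0292) in control, *Cyp4p3*, at -0.69 (SE 0.11, adjusted p = 0.000665) and -0.43 (SE 0.11, adjusted p = 0.0274), and *Cyp4d20*, at -0.75 (adjusted p = 0.00221) and -0.64 (SE 0.14, adjusted p = 0.0152). In control males only, *Cyp12b2* was called, at -0.55 (SE 0.12, adjusted p = 0.0141). Of the 10 control calls, those of *Cyp9b2*, *Cyp313a1* and *Cyp4ac2* held without each array in turn, while the largest adjusted p of the others was 0.125, for *Cyp305a1* without control starved array 1.

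In *dSTINGΔ* males alone, 16 genes were called higher and 11 lower when starved. *Cyp4ac3* read 8.32, 8.63 and 9.22 in *dSTINGΔ* starved males, against 6.66, 6.73 and 6.75 in *dSTINGΔ* fed males, a difference of 2.01 (SE 0.21, adjusted p = 3.92e-05). The arrays did not overlap. *Cyp4e3* read 7.54, 8.21 and 8.42, against 5.52, 6.35 and 6.40, a difference of 1.96 (SE 0.27, adjusted p = 0.000222); in control its difference was 0.77 (adjusted p = 0.0778). Also higher were *Cyp6a9* at 1.0 (SE 0.13, adjusted p = 0.000134), *Cyp309a2* at 0.97 (SE 0.13, adjusted p = 0.000223), *Cyp6a17* at 0.81 (SE 0.09, adjusted p = 4.77e-05), *Cyp28a5* at 0.79 (SE 0.11, adjusted p = 0.00031) and *Cyp9b1* at 0.59 (SE 0.10, adjusted p = 0.00104). The other 9 lay between 0.35 for *Cyp317a1* and 1.12 for *Cyp12c1*, and they include *Cyp12d1-d* at 0.86 (adjusted p = 0.00959) and *Cyp6a20*, known for its part in male aggression, at 0.61 (adjusted p = 0.00155). The control values of *Cyp12d1-d* lie close to the lowest value of the table, so a response in control could not be read for it.

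Lower when starved in *dSTINGΔ* alone was *Cyp4d14*, at 4.30, 4.84 and 4.98 starved, against 6.42, 6.62 and 6.94 fed, a difference of -1.95 (SE 0.20, adjusted p = 2.96e-05). *Cyp4d21* had -1.60 (SE 0.20, adjusted p = 0.00013), from 6.72, 7.32 and 7.50 in *dSTINGΔ* starved males, against 8.76, 8.78 and 8.80 in *dSTINGΔ* fed males. Neither gene had overlapping arrays. *Cyp6t1* had -1.02 (SE 0.12, adjusted p = 9.63e-05), and the other 8 lay between -0.84 for *Cyp4e1* and -0.40 for *Cyp6a13*. Of the 36 *dSTINGΔ* calls, 27 held without each array in turn; those lost without at least 1 array were *Cyp6a19*, *Cyp304a1*, *Cyp309a1*, *Cyp317a1*, *Cyp4p1*, *Cyp6a21*, *Cyp6a13*, *Cyp18a1* and *Cyp6a18*, with adjusted p up to 0.173 for *Cyp6a13* without *dSTINGΔ* fed array 3.

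By family, starvation called 12 of 22 *Cyp4* genes in *dSTINGΔ*, 3 higher and 9 lower, and 5 of 22 in control, 1 higher and 4 lower; of all genes 16.8% were called in *dSTINGΔ* and 11.2% in control. Among the *Cyp6* genes 9 of 21 were called in *dSTINGΔ*, 5 higher and 4 lower, and 0 of 21 in control (limma), where 7 of 21 had an unadjusted p under 0.05. Of 19 *Cyp3xx* genes, 4 were higher and 2 lower in *dSTINGΔ*, and 0 higher and 2 lower in control. The *Cyp12* family had 3 higher and 1 lower of 7 in *dSTINGΔ* and 1 lower in control, the *Cyp9* family 1 higher and 1 lower of 5 in *dSTINGΔ* and 1 lower in control, and the *Cyp28* family 2 higher of 4 in *dSTINGΔ* and 1 higher in control. *Cyp18a1* was lower in *dSTINGΔ*. The control counts of the *Cyp3xx* and *Cyp12* genes, 10.5% and 14.3%, lay near the share of all genes. Over the 80 genes the median starved minus fed difference was -0.0349 in *dSTINGΔ* and -0.0171 in control, against 0.0186 and -0.0043 over all genes.

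**Figure D4:**
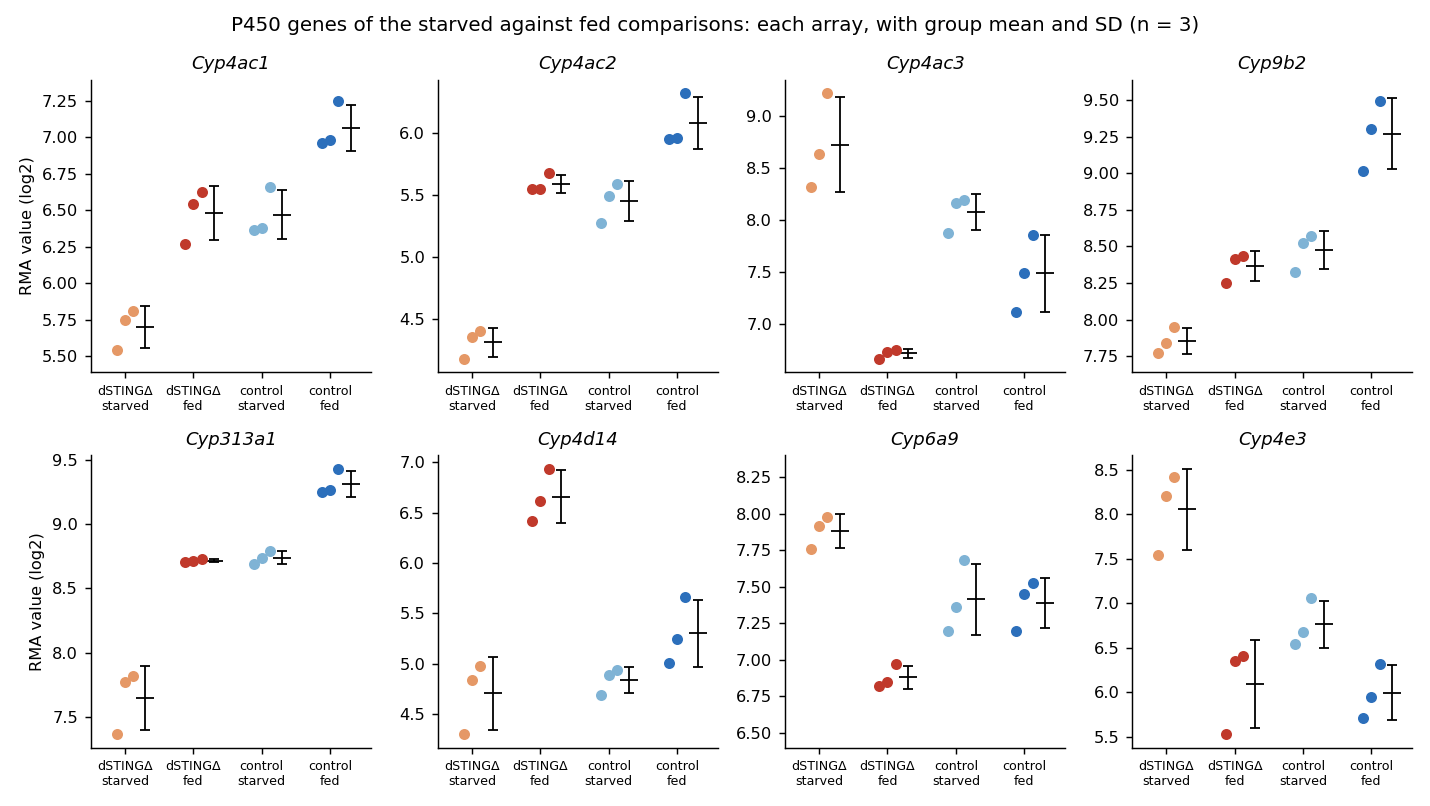
RMA value (log2) of 8 P450 genes on each of the 12 arrays, with starved beside fed in each genotype. Points are arrays, sorted by value within a group, the bar beside them is the group mean with its SD (n = 3), and each panel has its own scale. *Cyp4ac1*, *Cyp4ac2*, *Cyp9b2* and *Cyp313a1* are lower when starved in both genotypes, and *Cyp4ac3*, *Cyp4d14*, *Cyp6a9* and *Cyp4e3* were called in *dSTINGΔ* alone. In control the differences of these last genes had the same sign but were not called.

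The difference between the starvation responses of the genotypes, as the starved minus fed difference of *dSTINGΔ* less that of control, was called for 4 P450 genes, 3 higher and 1 lower in *dSTINGΔ*, which is 3.75% and 1.25% of the family, against 0.59% and 0.738% of all genes. *Cyp6a9* read 7.75, 7.91 and 7.98 in *dSTINGΔ* starved males, against 6.82, 6.85 and 6.97 in *dSTINGΔ* fed males, while its control arrays overlapped, at 7.20, 7.36 and 7.68 starved, against 7.20, 7.45 and 7.52 fed. Its difference of differences was 0.98 (SE 0.18, adjusted p = 0.0223). *Cyp4ac3* had a starved minus fed difference of 2.01 in *dSTINGΔ* and 0.59 in control, where it read 7.88, 8.16 and 8.19 starved, against 7.11, 7.49 and 7.85 fed, and the difference between them was 1.42 (SE 0.30, adjusted p = 0.0416). *Cyp309a2* had 0.97 in *dSTINGΔ* and 0.09 in control, a difference of 0.87 (SE 0.18, adjusted p = 0.0415). For *Cyp4d14* the values were -1.95 in *dSTINGΔ* and -0.47 in control, a difference of -1.49 (SE 0.28, adjusted p = 0.0263), with control arrays at 4.69, 4.89 and 4.93 starved, against 5.00, 5.25 and 5.66 fed. None of these 4 calls held without each array in turn: of 12 such fits the call held in 7 for *Cyp4d14*, 6 for *Cyp6a9*, 2 for *Cyp4ac3* and 2 for *Cyp309a2*, and without control starved array 2 the adjusted p was 0.0856, 0.0675, 0.124 and 0.125 for these genes in that order. The count itself was 12 without control fed array 1, 2 without *dSTINGΔ* fed array 2, *dSTINGΔ* fed array 3 or control starved array 3, 1 without *dSTINGΔ* fed array 1 or *dSTINGΔ* starved array 2, and 0 without *dSTINGΔ* starved array 1, control fed array 2 or control starved array 2. At an unadjusted p under 0.05 there were 30 of the 80.

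A further 28 P450 genes were called in no comparison, among them 12 of the 19 *Cyp3xx* genes, 7 *Cyp6* and 5 *Cyp4* genes. The share of all genes called in no comparison was not counted. Differences of the 28 lay between -0.38 (*Cyp6a23*) and 0.31 (*Cyp316a1*) for *dSTINGΔ* minus control in fed males and between -0.51 (*Cyp6a8*) and 0.28 (*Cyp6t3*) in starved males. For starved minus fed they lay between -0.39 (*Cyp6d4*) and 0.40 (*Cyp6a23*) in *dSTINGΔ* and between -0.43 (*Cyp6g2*) and 0.37 (*Cyp6a8*) in control. *Cyp6a8*, which like *Cyp6a2* is induced by xenobiotics, read 4.79, 5.03 and 5.41 in *dSTINGΔ* fed males, against 4.59, 5.06 and 5.42 in control fed males, and the groups overlapped, with a difference of 0.05 (SE 0.22, adjusted p = 0.907). *Cyp4g1*, which makes the cuticular hydrocarbons of oenocytes, read 12.13, 12.18 and 12.18 in *dSTINGΔ* fed males, against 12.16, 12.16 and 12.19 in control fed males, and holds the highest value of the table, 12.24, so a change near the top of the scale is hard to read. *Cyp303a1* (bristle development) and *Cyp301a1* (cuticle formation), like many *Cyp3xx* genes, read below the array median on all 12 arrays, where differences are harder to detect.

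Many P450 genes lie side by side: 44 of the 80 fell into 15 groups of neighbours within 20 kb of each other, and 36 stood alone. In fed males 1 such group held members called in both directions, the *Cyp4p* group, where *Cyp4p2* was higher and the adjoining *Cyp4p1* and *Cyp4p3* were lower. All 3 *Cyp4p* genes overlap the gene *hig*, which itself differed by 0.53 in fed males (adjusted p = 0.00574) and 0.29 in starved males (adjusted p = 0.0695). In starved males 5 groups held both directions, among them *Cyp4ac*, where *Cyp4ac3* was higher and *Cyp4ac1* and *Cyp4ac2* lower. The longest group has 9 members, *Cyp6a22* to *Cyp317a1*. In fed males 4 of its genes were lower, and the values ran from -0.90 (*Cyp6a21*) to 0.05 (*Cyp6a8*). In starved males 2 were higher and *Cyp6a21* lower, and starvation in *dSTINGΔ* raised 6 and lowered *Cyp6a21*. The fed genotype comparison and starvation in *dSTINGΔ* use the same *dSTINGΔ* fed arrays, so their counts are not independent. No background share was counted for groups of neighbours. By the annotation 38 of the 80 members overlap another gene model, 33 of them a protein-coding one, such as *Cyp6a9* with *Cyp6a19* or *Cyp4d14* with ND-B14.5A; whether probe sets of such pairs share signal was not tested.

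**Figure D5:**
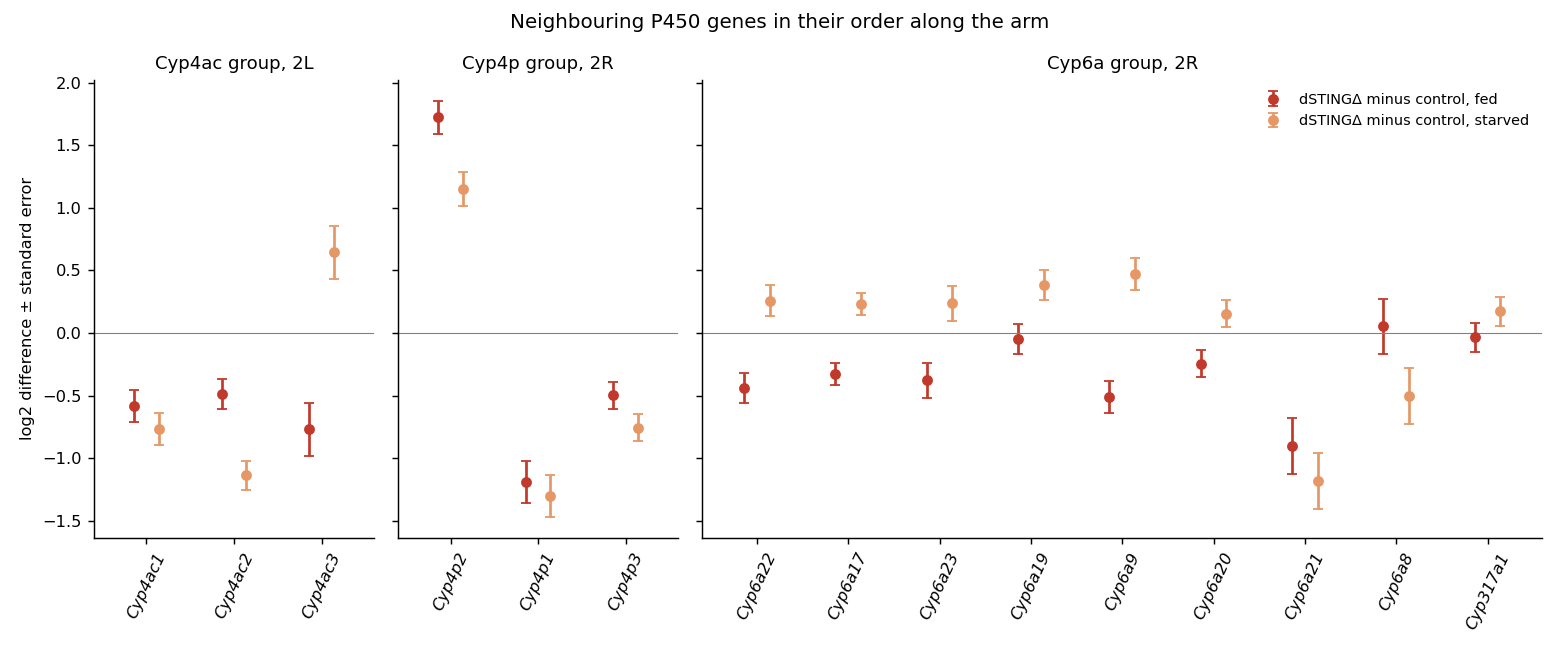
Log2 difference, *dSTINGΔ* minus control, with its standard error, for the P450 genes of 3 neighbour groups in their order along the chromosome arm. Within the *Cyp4p* group *Cyp4p2* is positive (1.73 fed) beside *Cyp4p1* (-1.19 fed); in the *Cyp6a* group *Cyp6a21* is the lowest in both states, at -0.90 fed and -1.18 starved.

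By chromosome arm, 1 of 14 P450 genes on the X was called in fed males (7.14%, against 6.9% of all X genes). On the autosomes the shares were 58.3% of 12 on 2L, 51.5% of 33 on 2R, 50.0% of 6 on 3L and 26.7% of 15 on 3R, against 15.5%, 14%, 14.1% and 11.4% of all genes on those arms. In starved males 35.7% of the X members were called, all lower, against 13.7% of X genes, and on the autosomal arms in the same order 66.7%, 60.6%, 50.0% and 26.7%, against 23.9%, 21.7%, 21.1% and 19.3%. The *dSTING* gene lies on 2R, and the nearest P450 genes are the *Cyp4p* group, 89 to 91 genes away, followed by *Cyp49a1*, 125 genes away. *Cyp12d1-p* and *Cyp12d1-d* are 195 and 197 genes away.

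The redox partners of the P450 enzymes were read from a list. Of 8 listed redox genes 5 were on the array under those symbols, and none of the 5 was called between the stocks in fed males (limma, 0 of 5, with 1 of 5 at an unadjusted p under 0.05). *Cpr*, the reductase that feeds most microsomal P450 enzymes, averaged 9.68 ± 0.03 in *dSTINGΔ* starved males and 10.07 ± 0.02 in control starved males (log2, SD, n = 3 each), a difference of -0.39 (SE 0.07, adjusted p = 0.00167). In fed males it differed by -0.06 (adjusted p = 0.618). Starved minus fed, *Cpr* had -0.41 (adjusted p = 0.000964) in *dSTINGΔ* and -0.09 (adjusted p = 0.43) in control. *Cyt-b5*, an electron carrier of the endoplasmic reticulum, had -0.34 (adjusted p = 0.0275) and -0.26 (adjusted p = 0.103), and *CG3566*, a cytochrome b5-like gene, -0.53 (adjusted p = 0.00543) and -0.53 (adjusted p = 0.0137). The ferredoxin gene *Fdxh* had 0.29 (adjusted p = 0.184) between the stocks in fed males.

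Most of the enzymes that make ecdysone are P450 proteins under other symbols (*phm*, *dib*, *sad*, *shd*, *spo*). Of 10 listed ecdysteroid genes 7 were found, and all 7 read below the array median on all 12 arrays. In starved males *sro* was called higher in *dSTINGΔ*, at 0.41 (adjusted p = 0.0307), and no other call was made among the 7 in the 5 tests by limma; at an unadjusted p under 0.05 there were 0 of 7 in fed males and 2 of 7 in starved males. Of 10 regulators of P450 genes, all on the array, *maf-S*, the partner of the xenobiotic response factor CncC, was lower in *dSTINGΔ* fed males, at -0.39 (adjusted p = 0.0264), with 0.01 (adjusted p = 0.968) in starved males. The gene *cnc* itself had 0.06 (adjusted p = 0.726) and 0.05 (adjusted p = 0.73), and *Keap1*, its inhibitor, 0.18 (adjusted p = 0.225) and -0.02 (adjusted p = 0.892). The nuclear receptor *Hr96* had 0.06 (adjusted p = 0.738) and -0.07 (adjusted p = 0.63). *foxo*, the insulin-regulated forkhead factor, was higher in *dSTINGΔ* starved males, at 0.32 (adjusted p = 0.0157), and starvation raised it in *dSTINGΔ*, at 0.63 (adjusted p = 0.000176), where *maf-S* also rose, at 0.38 (adjusted p = 0.0225).

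Some tissue markers were called in the same comparisons, and their part in the P450 differences was not tested. Of all genes 12.5% were called between the stocks in fed and 20% in starved males. With starvation 16.8% of all genes were called in *dSTINGΔ* and 11.2% in control. The lists are short, so 1 call in a list cannot be told from those shares. Of 6 Malpighian tubule markers, 1 was higher and 1 lower in *dSTINGΔ* fed males and 3 were lower in *dSTINGΔ* starved males. The mean level of the 6 on single arrays was 6.41 to 6.48 in *dSTINGΔ* starved, 6.61 to 6.76 in *dSTINGΔ* fed, 6.70 to 7.0 in control starved and 6.66 to 7.07 in control fed males. Of 6 midgut markers 1 was higher in fed males, and 2 were higher and 1 lower in starved males, with array means of 9.87 to 10.18 in *dSTINGΔ* starved, 10.14 to 10.36 in *dSTINGΔ* fed, 9.67 to 10.15 in control starved and 9.81 to 10.20 in control fed males. Of 3 fat body markers found, 1 was higher in *dSTINGΔ* fed and 1 lower in *dSTINGΔ* starved males, with array means of 6.82 to 7.19 in *dSTINGΔ* starved, 8.45 to 9.01 in *dSTINGΔ* fed, 6.85 to 7.51 in control starved and 8.09 to 8.15 in control fed males. With starvation, 6 of 7 accessory gland markers were lower in *dSTINGΔ* and 4 of 7 in control, at 7.20 to 7.74 in *dSTINGΔ* starved, 8.59 to 9.10 in *dSTINGΔ* fed, 7.88 to 8.11 in control starved and 8.62 to 9.11 in control fed males. Of 4 muscle markers 1 was lower in *dSTINGΔ* fed and 2 in *dSTINGΔ* starved males. In fed males 1 of 4 photoreceptor, 1 of 4 neuron and 1 of 4 testis markers was higher in *dSTINGΔ*, and 1 of 2 oenocyte markers was lower; in starved males 1 of 4 testis markers was higher, and 1 of 2 oenocyte and 3 of 7 accessory gland markers were lower. With starvation in *dSTINGΔ*, 3 of 4 muscle and 2 of 3 fat body markers were lower. In control 1 of 4 muscle markers was lower, and 1 fat body marker was higher and 1 lower. Starvation lowered 1 of 6 midgut and 1 of 6 tubule markers in each genotype. It called 0 of 4 photoreceptor, 0 of 4 neuron and 0 of 2 oenocyte markers in either genotype (limma). Of 4 testis markers 1 was higher with starvation in *dSTINGΔ* and 0 in control. The fat body markers did not move alike: *Lsp2* had -4.26 in *dSTINGΔ* and -2.89 in control, *to* -1.38 and -0.34, and *Apoltp* 0.08 and 0.37. The interaction called 1 of the 6 tubule markers, lower. Every tissue marker list had members above the array median on all 12 arrays, and RMA values have no zero level.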

How the data were processed

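RNA of whole males was hybridised to Drosophila Gene 1.0 ST arrays, 3 per group of genotype and feeding state. According to the submitters' processing notes and the methods, the authors normalised the 12 arrays by RMA with affy 1.48.0 in R 3.2.0, with probe sets remapped to Entrez genes; the genome build is not given in the sources used here. The deposited table holds log2 values for 13554 genes, and these were used as deposited. Its further columns hold the authors' own fold changes, t statistics and p-values, which were not used. Columns of that table name a group but no labelled replicate, so fits that left out an array or used the replicate number took the same log2 values, rounded to 2 decimals, from the sample records.

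One mean per group was fitted over the 12 arrays with limma 3.58.1 (R 4.3.3), with 8 residual degrees of freedom before the empirical Bayes step. Differences between fed groups, between starved groups, between starved and fed in each genotype, and between these responses (the interaction) were tested, and p-values were Benjamini-Hochberg adjusted over all genes. A gene was called at an adjusted p under 0.05. Standard errors are those of the fit. The number of arrays limits the precision. Family members, the redox, ecdysteroid and regulator lists and the tissue markers were chosen with earlier results of these data known. Families follow the number after Cyp. Named with full statistics are P450 genes called between genotypes at over 1.4-fold, those called in the interaction, and up to 8 per direction with the smallest adjusted p in each starvation comparison. Positions, neighbours within 20 kb and overlaps come from RefSeq Release 6 annotation. The procedure was tested on simulated data. The files name no build, so RefSeq positions served only for these neighbour relations and no coordinate or sequence is printed.

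Alternatives were fits of the compared arrays alone, a replicate block, trended and robust empirical Bayes, array quality weights, centring on array medians, a filter on signal, the sample record values, other thresholds, and each array left out in turn. Same-numbered arrays did not deviate together throughout. The correlation of their deviations from the group means lay between -0.4 and 0.37 and differed in sign. Between control starved and control fed arrays it was 0.243, -0.038 and 0.37 for arrays 1, 2 and 3.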

Additional observations from a re-analysis of the deposited data

Results flagged for a closer look

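The starvation response differed between the genotypes, by the interaction test, for *Cyp4ac3* (1.42 on the log2 scale), *Cyp6a9* (0.98), *Cyp309a2* (0.87) and *Cyp4d14* (-1.49); a positive value means a larger starved minus fed difference in *dSTINGΔ* than in control. All 4 were called in *dSTINGΔ* starved against fed males and none in control males. *Cyp6a9* and *Cyp309a2* had overlapping arrays in control males. Control arrays of *Cyp4ac3* and *Cyp4d14* did not overlap and moved in the same direction as in *dSTINGΔ*, by 0.59 and -0.47. No explanation was tested for these 4 genes, and each call was lost without at least 1 array.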

How the results depend on the processing

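No call of a P450 gene changed direction under any alternative. Of the calls, 23 of 32 between genotypes in fed males, 27 of 40 in starved males, 2 of 10 for starvation in control, 27 of 36 for starvation in *dSTINGΔ* and 0 of 4 in the interaction held under every setting in which the gene was fitted, threshold changes aside. Of 80 P450 genes, 34 have a mean above the median signal; testing only such genes left 17 calls in fed males (1 higher, 16 lower) and 18 in starved males (4 and 14), by construction with fewer genes tested. An adjusted p under 0.01 left 26 calls in starved males, 3 for starvation in control and 0 in the interaction (limma). With only the arrays compared, starvation in control gave 3 calls, and with array quality weights 25 (15 higher, 10 lower), while the weights gave 28 in the interaction (14 and 14); the cause was not tested. With the replicate block, the counts were 29 in fed and 39 in starved males, 12 for starvation in control, 37 for starvation in *dSTINGΔ* and 2 in the interaction. Leaving out 1 array at a time gave 24 to 32 calls in fed males, 29 to 41 in starved males, 4 to 14 for starvation in control, 29 to 39 for starvation in *dSTINGΔ* and 0 to 12 in the interaction. Centring the arrays moved the median of all genes by less than 0.1. Low signal limits the 33 P450 genes that read above the array median on no array.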
